A study of Mus musculus with 4 samples.

Results

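Inhibitory checkpoints restrain activated T cells, and 8 genes of this system were followed here through the leukocytes of a mouse pancreatic tumor: the receptors Pdcd1 (PD-1), Ctla4, Lag3, Havcr2 (TIM-3) and Tigit, the PD-1 ligands Cd274 (PD-L1) and Pdcd1lg2 (PD-L2), and Tox, a transcription factor of exhausted T cells. They were chosen by name, as 8 of the 33696 features in the count matrices, and all 8 were detected, with 3936 (Lag3) to 117272 (Cd274) unique molecular identifiers (UMIs, counted RNA molecules) in the leukocytes kept. The study asked how agonists of STING and of the lymphotoxin-β receptor (LTβR) act on the immune cells of tumors. KPC cells, a mouse pancreatic carcinoma line, were grown under the skin of male C57BL/6NHsd mice aged 8 to 10 weeks. Live CD45+ cells (leukocytes) were sorted from the tumors at day 14 and profiled by single-cell RNA sequencing from the 5′ end of transcripts.

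All 4 groups carried the same tumor line and differed in the agents given. Untreated mice received neither agonist. STING monotherapy was 1 injection of ADU-S100, a cyclic dinucleotide STING agonist, into the tumor at 2 µg. LTβR monotherapy was 4 injections of the agonistic antibody 4H8 (anti-LTβR) into the peritoneum, and the combination therapy group received both agents. Each group was 1 library made from 10 pooled tumors, so mice cannot be told apart, no value has a replicate and no test between treatments was possible. Levels are UMIs scaled to 1000000 UMIs of the same cell type in the same library (CPM), and every interval given is a 95% interval that covers counting error only, not the spread between mice. Ratios are log2 ratios of CPM in a library over CPM in the untreated library unless another reference is named. Lists of values run in the order untreated, ADU-S100, anti-LTβR and combination, and lists of 3 ratios or counts in the order ADU-S100, anti-LTβR and combination.

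PD-1 is a receptor that T cells display after antigen stimulation, and its ligands PD-L1 and PD-L2 on other cells dampen signaling through the T cell receptor. CTLA-4 competes with CD28 for CD80 and CD86 and is displayed at high levels by regulatory T cells, whereas LAG-3 binds MHC class II, TIM-3 binds galectin-9 among other ligands, and TIGIT binds the poliovirus receptor Pvr. When stimulation persists, CD8 T cells can enter exhaustion, a state maintained by Tox in which several of these receptors are displayed together, with progenitors that keep the transcription factor Tcf7 (TCF-1) and terminal cells that lose it and display TIM-3.

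The promoters of 5 of the genes are shown so that the letters upstream of genes that respond to stimulation can be read beside their levels. Promoter windows from RefSeq were matched for 6 of the 8 genes, and those of Lag3 and Tox are not shown. Each window runs from 250 bases before to 50 bases after the start of 1 RefSeq transcript on build GRCm38.p6, and is written 5′ to 3′ on the strand of the gene. Capitals mark GGAAA on either strand (TTTCC where it lies on the other strand), the core letters of sites for NFAT, a factor switched on by the T cell receptor. The windows are Pdcd1 at chr1:94052504-94052803 (minus strand), Ctla4 at chr1:60908775-60909074 (plus strand) and Tigit at chr16:43664135-43664434 (minus strand) for the receptors, and Cd274 at chr19:29367188-29367487 (plus strand) and Pdcd1lg2 at chr19:29410669-29410968 (plus strand) for the ligands.
Pdcd1: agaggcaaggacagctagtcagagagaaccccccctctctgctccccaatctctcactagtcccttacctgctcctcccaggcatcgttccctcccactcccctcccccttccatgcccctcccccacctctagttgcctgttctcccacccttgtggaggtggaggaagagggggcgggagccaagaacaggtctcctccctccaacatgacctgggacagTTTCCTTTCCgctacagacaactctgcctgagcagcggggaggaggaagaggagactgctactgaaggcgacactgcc
Ctla4: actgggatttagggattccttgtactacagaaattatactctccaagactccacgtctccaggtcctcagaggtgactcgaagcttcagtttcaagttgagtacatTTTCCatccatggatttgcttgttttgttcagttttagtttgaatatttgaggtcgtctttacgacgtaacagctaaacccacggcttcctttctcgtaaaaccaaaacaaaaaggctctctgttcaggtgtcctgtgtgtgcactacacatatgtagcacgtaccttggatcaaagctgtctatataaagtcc
Tigit: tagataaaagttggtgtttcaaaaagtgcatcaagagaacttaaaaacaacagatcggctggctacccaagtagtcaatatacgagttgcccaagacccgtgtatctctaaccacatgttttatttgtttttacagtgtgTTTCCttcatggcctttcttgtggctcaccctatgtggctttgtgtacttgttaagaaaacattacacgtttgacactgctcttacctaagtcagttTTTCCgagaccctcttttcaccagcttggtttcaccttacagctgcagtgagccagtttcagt
Cd274: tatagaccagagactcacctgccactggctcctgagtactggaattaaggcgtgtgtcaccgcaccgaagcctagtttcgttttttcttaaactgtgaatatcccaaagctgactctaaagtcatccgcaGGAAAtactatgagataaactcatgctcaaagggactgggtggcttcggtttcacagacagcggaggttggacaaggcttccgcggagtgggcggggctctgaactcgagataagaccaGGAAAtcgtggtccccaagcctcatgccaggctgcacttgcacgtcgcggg
Pdcd1lg2: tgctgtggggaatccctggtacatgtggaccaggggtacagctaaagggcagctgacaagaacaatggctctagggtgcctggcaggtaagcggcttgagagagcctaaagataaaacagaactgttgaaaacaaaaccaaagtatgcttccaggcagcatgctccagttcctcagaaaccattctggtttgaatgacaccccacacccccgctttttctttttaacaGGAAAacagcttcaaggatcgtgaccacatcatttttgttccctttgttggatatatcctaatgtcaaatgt
The Pdcd1 window held 2 GGAAA matches side by side, with first bases 28 and 23 bases before the start. Tigit held 2, Cd274 2, Ctla4 1 and Pdcd1lg2 1, and the Havcr2 window held 0. GGAAA occurred in 61.3% of all 32851 promoter windows (20151), so a match is common and describes the letters only. GAAA, any 2 bases and GAAA, the core of interferon-stimulated response elements (3.44% of windows), TTCNNNGAA, the letters of STAT sites (8.30%), and TCACACCT, letters of T-bet sites (1.28%), were searched on both strands and were in none of the 6 windows. GGGA, any 4 bases and CC, letters of NF-κB sites (20.7% of windows), was in Pdcd1lg2 alone among the 6.

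After limits on genes and mitochondrial UMIs and removal of likely doublets, 7377, 13226, 13029 and 14421 leukocytes of 8730, 15404, 14634 and 16322 deposited cells were used. The combination library was the shallowest, with median UMIs per leukocyte of 4580.0, 3113, 3703 and 2171. Between 34 and 83 cell barcodes were shared by a pair of libraries, at most 0.539% of the smaller one. Cell types were set by clusters and marker genes, with the 8 genes kept out of the clustering. CD8 T cells (a Cd8a or Cd8b1 UMI, no Cd4 or Foxp3 UMI) numbered 514, 210, 639 and 670, CD4 T cells 175, 84, 315 and 162, regulatory T cells (a Foxp3 UMI) 163, 49, 115 and 52 and NK cells 401, 362, 813 and 540. Cd8a stood between 769 and 986 CPM in CD8 T cells. Fewer cells of a type and less RNA per cell cannot be told apart in a sum over leukocytes, so levels are given within cell types first. The 6 myeloid markers C1qa, Lyz2, Apoe, Csf1r, S100a8 and S100a9 summed to 136, 412, 108 and 362 CPM in CD8 T cells, with 6 of 6 detected in every library. Without the T and NK cells holding at least 2 UMIs of them, the CD8 ratios of Pdcd1 were −0.36, −0.75 and −0.45, beside −0.29, −0.79 and −0.48 with them. T cells that met none of the 3 gates, 491, 236, 851 and 729 of them and 34, 14, 52 and 34 γδ T cells, and 1613, 3031, 2534 and 3374 leukocytes of clusters that the marker rules left unnamed are not described further, other than 1 cluster in the plot of the ligands. The T cells outside the gates held 13.1%, 12.5%, 14.2% and 14.3% of all Pdcd1 UMIs, and the unnamed leukocytes 22.5%, 19.1%, 20.5% and 26.1% of all Cd274 UMIs.

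Pdcd1 was highest in CD8 T cells, where it stood at 665 CPM (635 to 696) in untreated, 544 (501 to 589) with ADU-S100, 384 (360.4 to 408) after anti-LTβR and 477 (444 to 511) with combination therapy. All 3 agonist libraries were below untreated, and anti-LTβR was the lowest. Different clusters held most of the CD8 T cells in different libraries, as described further on. The log2 ratios were −0.29 (−0.43 to −0.16), −0.79 (−0.91 to −0.68) and −0.48 (−0.60 to −0.36). Combination therapy stood above anti-LTβR by log2 0.31 (0.18 to 0.45) and slightly below ADU-S100 (log2 −0.19, −0.35 to −0.03). CD4 T cells held less, 354, 304, 213 and 235 CPM, and there the ADU-S100 value did not differ from untreated beyond counting error (log2 −0.22, −0.59 to 0.15). Regulatory T cells held 134, 77.2, 96.6 and 108 CPM from 83, 17, 38 and 12 UMIs, and NK cells 21.4, 29.8, 13.5 and 19.5 CPM. In macrophages and monocytes it was at or below 1.07 CPM in each library.

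Ctla4 was highest in regulatory T cells, with 4079.6 CPM (3922 to 4242) in untreated, 3135 (2906 to 3378) with ADU-S100, 3141 (2969 to 3321) after anti-LTβR and 3428 (3093 to 3789) with combination therapy. The 3 agonist libraries lay below untreated, at log2 −0.38 (−0.50 to −0.26), −0.38 (−0.48 to −0.28) and −0.25 (−0.41 to −0.10), and combination therapy did not differ beyond counting error from ADU-S100 (log2 0.13, −0.06 to 0.31) or anti-LTβR (log2 0.13, −0.04 to 0.29). The combination value depended on how the cells were set. It was 0.21 (0.01 to 0.41) where a Cd4 UMI was asked for as well, −0.06 without cells holding myeloid markers, −0.03 with each cell named by its own markers and −0.44 without the 1 cell richest in Ctla4 in each library. With every cell thinned to 1000 UMIs the anti-LTβR ratio was −0.10 (−0.29 to 0.08). CD4 T cells held 1517, 1094, 953 and 901 CPM and CD8 T cells 909.8, 675, 561 and 627 CPM, so untreated was the highest library in all 3 T cell types. Regulatory T cells stood above CD4 and CD4 above CD8 T cells in every library. Outside T cells the order differed: NK cells held 86.4, 142, 115 and 79.9 CPM and B lineage cells 96.0, 132, 116 and 135 CPM, with ratios of log2 0.71 (0.39 to 1.04), 0.42 (0.11 to 0.73) and −0.11 (−0.53 to 0.30) in NK cells and 0.46 (0.03 to 0.89), 0.27 (−0.08 to 0.64) and 0.49 (0.14 to 0.85) in B lineage cells. Among dendritic cells (DC), type 1 conventional DC (cDC1, which cross-present antigen) held 59.1, 72.5, 63.0 and 26.3 CPM from 87, 50, 53 and 17 UMIs, with combination therapy the lowest (log2 −1.17, −2.01 to −0.41).

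Lag3 stood apart from the other receptors in CD8 T cells. Its levels were 289 CPM (269 to 309.7) in untreated, 281 (250.3 to 314) with ADU-S100, 285 (265 to 306) after anti-LTβR and 262 (237 to 288) with combination therapy, and no pair of libraries compared differed beyond counting error. The ratios were log2 −0.04 (−0.24 to 0.15), −0.02 (−0.17 to 0.12) and −0.14 (−0.32 to 0.03), and none of these intervals reached the −0.79 of Pdcd1 with anti-LTβR. With ADU-S100, however, the Lag3 interval overlapped that of Pdcd1. With each cell named by its own markers in place of its cluster, Lag3 with anti-LTβR stood at log2 −0.28 (−0.46 to −0.11). In regulatory T cells Lag3 was low, 42.0, 145, 86.4 and 98.7 CPM from 26, 32, 34 and 11 UMIs, and the agonist libraries stood above untreated at log2 1.79 (1.00 to 2.60), 1.04 (0.26 to 1.84) and 1.23 (0.07 to 2.30). Few cells carried these molecules, since 1 cell held 37.5% of the ADU-S100 UMIs and 1 cell 63.6% of the combination UMIs. NK cells held 11.8, 27.9, 19.0 and 17.5 CPM and CD4 T cells 109.6, 76.9, 109 and 86.9 CPM.

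Outside T and NK cells, Lag3 was found in plasmacytoid DC, the interferon-producing DC, at 143, 98.3, 161 and 150.4 CPM from 48, 33, 37 and 10 UMIs, with overlapping intervals. In macrophages with the complement genes C1qa, C1qb and C1qc (C1q macrophages) it was rare and differed between libraries, at 7.70 CPM (6.02 to 9.69) in untreated, 7.90 (5.86 to 10.4) with ADU-S100, 13.6 (11.0 to 16.6) after anti-LTβR and 25.4 (21.4 to 29.9) with combination therapy. Combination therapy was the highest, above untreated by log2 1.72 (1.30 to 2.15), above ADU-S100 by 1.69 (1.21 to 2.18) and above anti-LTβR by 0.90 (0.52 to 1.29). These levels rest on 72, 50, 95 and 144 UMIs in 63, 46, 82 and 117 cells. The T cell markers Cd3e, Cd3d and Trac summed to 3.21, 1.58, 6.01 and 4.06 CPM in the same cells, and their part in the Lag3 values was not tested.

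Havcr2 was held by myeloid cells as well as T cells. CD8 T cells stood at 366 CPM (344 to 389) in untreated, 226 (198 to 256) with ADU-S100, 208 (191 to 226) after anti-LTβR and 254 (230.4 to 279.9) with combination therapy, with all 3 agonist libraries lower at log2 −0.70 (−0.90 to −0.49), −0.82 (−0.97 to −0.66) and −0.53 (−0.69 to −0.36). With every cell thinned to 1000 UMIs the ratios were −0.96, −1.05 and −0.99. CD4 T cells held 172, 66.9, 73.4 and 110.1 CPM, again highest in untreated, while regulatory T cells held 200.3, 232, 224 and 287 CPM with overlapping intervals. In macrophages and monocytes untreated was the lowest library instead, at 213 (207 to 219), 259 (254 to 265), 240.1 (235 to 245) and 268 (261 to 274) CPM. The differences there were small, log2 0.28, 0.17 and 0.33, and at a clustering resolution of 2 they were 0.08, −0.03 and 0.30. DC held 312, 316, 331 and 352 CPM (log2 0.02, 0.09 and 0.18, and −0.26, −0.03 and −0.06 with cells thinned to 1000 UMIs) and cDC1, in which TIM-3 is known as a regulator, 451, 389.8, 494 and 438 CPM. In mature DC, which migrate to lymph nodes, Havcr2 was low, 21.8, 39.96, 60.4 and 60.1 CPM, and the anti-LTβR and combination libraries stood above untreated by log2 1.47 (0.74 to 2.25) and 1.46 (0.59 to 2.35). The 6 myeloid markers summed to 304, 164, 86.03 and 772 CPM in mature DC, lowest with anti-LTβR and highest with combination therapy, and their part in the Havcr2 values was not tested.

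Tigit was shared by T and NK cells. CD8 T cells held 377 CPM (355 to 401) in untreated, 271 (241 to 304) with ADU-S100, 208 (191 to 226) after anti-LTβR and 259.8 (236 to 286) with combination therapy, with log2 ratios of −0.48, −0.86 and −0.54. Regulatory T cells held 399, 423, 404 and 422 CPM and did not differ from untreated beyond counting error in any library, at log2 0.08 (−0.28 to 0.43), 0.02 (−0.28 to 0.31) and 0.08 (−0.40 to 0.54). NK cells held 201, 234, 173 and 192 CPM, and CD4 T cells 299, 181, 189 and 240.5 CPM. NK cells thus supplied 14.3%, 36.5%, 27.1% and 19.6% of all Tigit UMIs and CD8 T cells 51.7%, 28.97%, 31.1% and 42.3%, and with ADU-S100 the NK share was the larger.

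Tox had the largest ratio of the 6 T cell genes in CD8 T cells with each single agonist. It stood at 1655 CPM (1608 to 1703) in untreated, 571 (527 to 618) with ADU-S100, 748 (715 to 781) after anti-LTβR and 1115 (1064 to 1167) with combination therapy, and no intervals overlapped. Against untreated the log2 ratios were −1.53 (−1.66 to −1.41), −1.15 (−1.22 to −1.07) and −0.57 (−0.65 to −0.49). Combination therapy was above both single agonists, by log2 0.97 (0.83 to 1.10) over ADU-S100 and 0.58 (0.48 to 0.67) over anti-LTβR. CD4 T cells held 751, 334, 755 and 892 CPM, where ADU-S100 was the library below untreated (log2 −1.17, −1.497 to −0.85). NK cells, whose mixture differed between libraries as given above, held 721, 479, 601 and 521 CPM and regulatory T cells 1074, 863, 961 and 1104 CPM. ADU-S100 was the lowest library for Tox in each of these 4 cell types, although in NK and regulatory T cells its interval overlapped that of another agonist library. In macrophages and monocytes Tox stood at 5.32 CPM or less.

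**Figure D1:**
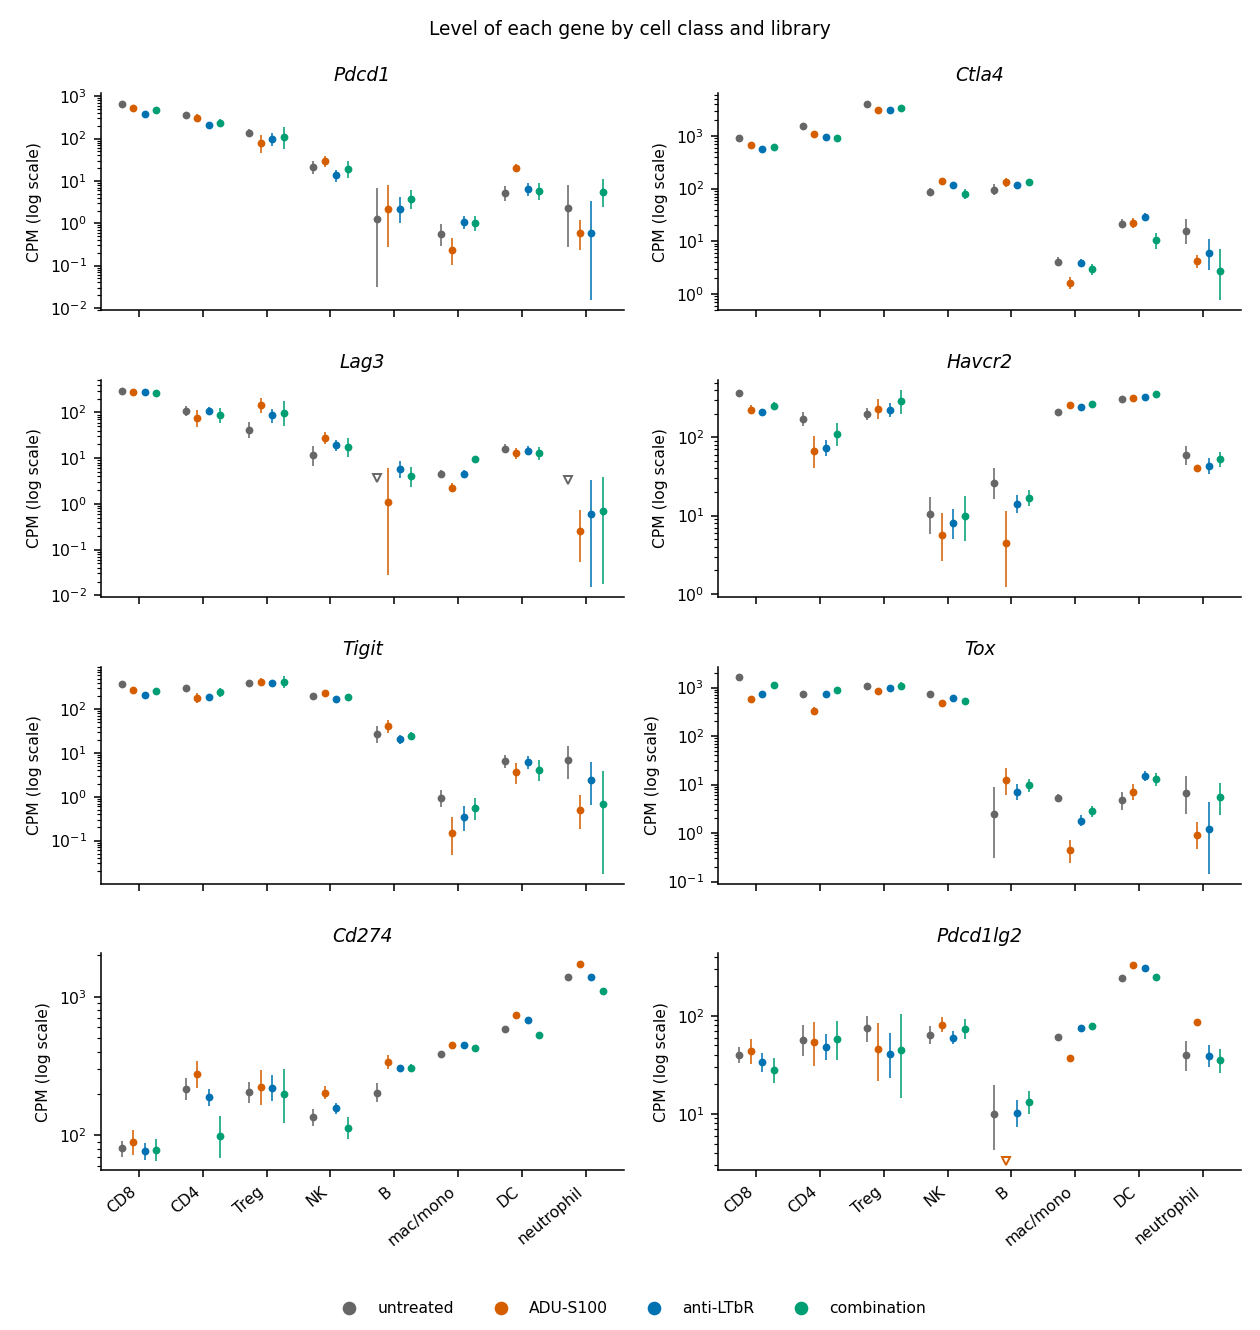
Level of each of the 8 genes (CPM, log scale with a different range in each panel) in 8 cell types, 1 point per library with its 95% counting interval, and an open triangle at the limit of 3 counts where no UMI was found. Pdcd1 is highest in CD8 T cells, Ctla4 in regulatory T cells and Cd274 in neutrophils, and in CD8 T cells the untreated point is the highest for Pdcd1, Ctla4, Havcr2, Tigit and Tox, while the Lag3 intervals overlap.

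Counts of members were read against all genes with at least 50 UMIs over the pair of libraries. In CD8 T cells 2, 5 and 0 of 8 members were at least 1.5-fold lower than untreated (Havcr2 and Tox with ADU-S100, and Pdcd1, Ctla4, Havcr2, Tigit and Tox with anti-LTβR), where 9.27%, 6.32% and 7.3% of all genes were that much lower. The count of 0 with combination therapy depended on the depth, since Havcr2, Tigit and Tox stood at log2 −0.99, −0.60 and −0.72 in cells thinned to 1000 UMIs. It depended on doublet removal too, without which Pdcd1, Tigit and Tox stood at −0.59, −0.64 and −0.70, all at least 1.5-fold lower. None of the 8 was 1.5-fold higher in any of the 3 libraries, beside 6.14%, 7.11% and 6.41% of all genes. In CD4 T cells 3, 4 and 4 of 7, 8 and 8 members measured were lower, beside 11.2%, 4.24% and 7.43% of all genes, and 0 were higher in any library, beside 6.9%, 6.95% and 5.94%. Havcr2 was among the lower genes of CD4 T cells in all 3 libraries, Tigit with both single agonists, Pdcd1 and Ctla4 with anti-LTβR and combination therapy, Tox with ADU-S100 and Cd274 with combination therapy. The cluster that held most CD4 T cells had 90.3%, 92.9%, 85.4% and 76.5% of them, and a cluster with Nsg2, Klra1, Tcf7 and Lef1 among its leading genes had 1.71%, 5.95%, 11.1% and 20.4%, so the mixture of CD4 T cells differed between libraries. Tigit with anti-LTβR was at log2 −0.30 in CD4 T cells thinned to 1000 UMIs, against −0.66 at full depth, and Pdcd1 with combination therapy at −0.27 against −0.59.

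In regulatory T cells 1, 1 and 0 of 8, 8 and 7 members were at least 1.5-fold higher, Lag3 in both cases, beside 6.44%, 6.25% and 8.79% of all genes. Pdcd1 and Pdcd1lg2 with ADU-S100 and Pdcd1lg2 with anti-LTβR and with combination therapy were that much lower, 2, 1 and 1 genes beside 13.9%, 5.75% and 14.5%. In NK cells 2, 1 and 0 of 7, 7 and 6 members were higher (Ctla4 and Lag3 with ADU-S100, Lag3 with anti-LTβR), beside 4.57%, 4.85% and 4.64%, and 1, 1 and 0 were lower (Tox with ADU-S100, Pdcd1 with anti-LTβR), beside 5.78%, 3.11% and 4.81%. Ctla4 and Tox in NK cells rest on at least 82 and 535 UMIs in a library, while the others named here rest on few. Lag3 in NK cells had 17, 44, 52 and 18 UMIs, Pdcd1 in NK cells 31, 47, 37 and 20 and Pdcd1lg2 in regulatory T cells 46, 10, 16 and 5. The 6 myeloid markers summed to 145, 349.9, 234 and 476 CPM in regulatory T cells and 129, 706, 195 and 226 CPM in CD4 T cells, and their part in the Pdcd1lg2 and Cd274 values there was not tested.

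CD8 T cells were not the same mixture in the 4 libraries. A cluster with Rgs16, Slc16a11, Klrh1 and also Lag3 among its 10 leading genes (Rgs16-led cluster) held 71.2% of CD8 T cells in untreated, 42.4% with ADU-S100, 42.9% with anti-LTβR and 49.4% with combination therapy. A cluster with Nsg2, Klra1, Tcf7 and Lef1 among its leading genes (Tcf7-led cluster) held 16.9%, 45.7%, 50.5% and 43.4%, so it was the larger of the 2 with each single agonist and the smaller in untreated and with combination therapy. The 8 genes took no part in forming the clusters, but genes that vary with them did, so levels are compared between libraries within a cluster and the clusters are only described.

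Within the Rgs16-led cluster the Pdcd1 levels lay close together, at 759 CPM (723 to 796) in untreated, 816 (743 to 894) with ADU-S100, 692 (647 to 739) after anti-LTβR and 802 (744 to 864) with combination therapy. The ratios were log2 0.11 (−0.05 to 0.25), −0.13 (−0.25 to −0.01) and 0.08 (−0.05 to 0.21), against −0.29, −0.79 and −0.48 over all CD8 T cells, and anti-LTβR remained the lowest library. Havcr2 stood at 385, 398, 398 and 442 CPM and Ctla4 at 1034, 956, 966 and 942 CPM, with ratios of 0.05, 0.05 and 0.20 and of −0.11, −0.10 and −0.13. Tigit stood at 437, 404, 341 and 432 CPM and was lower with anti-LTβR (log2 −0.36, −0.53 to −0.19). The lower level of Pdcd1 and Havcr2 seen over all CD8 T cells with ADU-S100 and combination therapy was thus not seen in this cluster.

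Lag3 and Tox differed between libraries within the same cluster. Lag3 stood at 351 CPM (327 to 376) in untreated, 512 (454 to 574) with ADU-S100, 558 (518 to 600.5) after anti-LTβR and 468 (423 to 515) with combination therapy, and all 3 agonist libraries were above untreated, by log2 0.54 (0.34 to 0.74), 0.67 (0.52 to 0.82) and 0.41 (0.24 to 0.59). Tox stood at 1663 CPM (1610.2 to 1718) in untreated, 793 (721 to 869.9) with ADU-S100, 971 (918 to 1027) after anti-LTβR and 1447 (1368 to 1529) with combination therapy. The Tox ratios were log2 −1.07 (−1.21 to −0.93), −0.78 (−0.87 to −0.68) and −0.20 (−0.29 to −0.11), so the single agonist libraries were far below untreated and the combination library close to it. In the Tcf7-led cluster receptor levels were low. Pdcd1 stood there at 88.5, 207, 31.5 and 30.5 CPM from 33, 90, 38 and 20 UMIs, highest with ADU-S100, Lag3 at 16.1, 23.0, 12.4 and 9.14 CPM and Tox at 309, 253, 399.9 and 346 CPM.

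**Figure D2:**
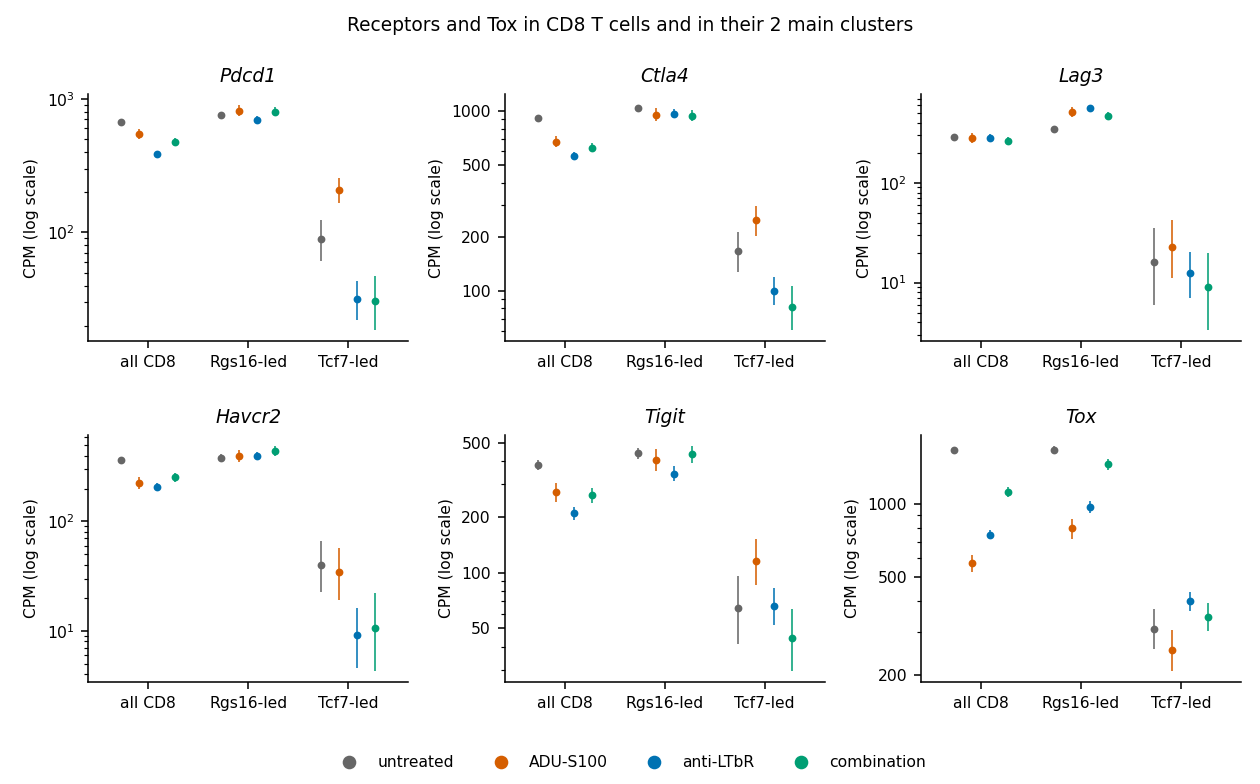
CPM (log scale, a different range in each panel) of the 5 receptors and Tox in all CD8 T cells and in their Rgs16-led and Tcf7-led clusters, 1 point per library with its 95% counting interval. Pdcd1, Ctla4 and Havcr2 lie close together within the Rgs16-led cluster, Lag3 is higher there in the 3 agonist libraries (468 to 558 CPM against 351), and Tox is lower with the single agonists (793 and 971 CPM against 1663).

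A split of CD8 T cells by a Tcf7 UMI, without clusters, was read beside the clusters. In cells with no Tcf7 UMI Pdcd1 stood at 744, 745, 639 and 701 CPM, Lag3 at 325, 429, 475 and 387 CPM and Tox at 1833, 724, 973 and 1463 CPM. Untreated was again the lowest library for Lag3 and the highest for Tox. Havcr2 stood at 415, 347, 351 and 377 CPM, with log2 ratios of −0.26 (−0.47 to −0.05), −0.24 (−0.40 to −0.09) and −0.14 (−0.31 to 0.03), so untreated was the highest library here and the lowest in the Rgs16-led cluster. Ctla4 stood at 1017, 921, 901 and 880.0 CPM and Tigit at 419, 363, 310.0 and 365 CPM, both highest in untreated. In cells with a Tcf7 UMI Pdcd1 stood at 104 CPM (73.1 to 145) in untreated, 198 (157 to 246) with ADU-S100, 41.9 (30.8 to 55.7) after anti-LTβR and 34.5 (20.8 to 53.9) with combination therapy. ADU-S100 was the highest of the 4 in that gate, and at these depths a cell with no Tcf7 UMI may still express the gene.

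Receptors were next counted cell by cell, with every cell thinned to 1000 UMIs because of the unequal depth, which left out 9, 7, 15 and 76 CD8 T cells. The share of CD8 T cells with at least 2 of the 5 receptors detected was 51.9% (47.4 to 56.3) in untreated, 40.4% (33.6 to 47.5) with ADU-S100, 31.1% (27.5 to 34.9) after anti-LTβR and 36.9% (33.0 to 40.9) with combination therapy. Without thinning the shares were 81.7%, 61.9%, 49.3% and 51.0%. Cells with none of the 5 were 23.0%, 34.5%, 50.3% and 44.6% of the thinned cells, and untreated had the lowest share of them. Regulatory T cells had at least 2 receptors in 39.1%, 37.0%, 46.6% and 38.1% of thinned cells and CD4 T cells in 47 of 170, 23 of 81, 60 of 300 and 44 of 142, with overlapping intervals in both.

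Single genes in thinned CD8 T cells gave the same highest library. A Pdcd1 UMI was found in 41.0%, 35.5%, 24.4% and 30.5% of them and a Tox UMI in 64.8%, 35.0%, 37.7% and 45.6%. In thinned neutrophils, which should lack both genes, Pdcd1 was found in 0 of 393 cells in untreated, which allows a share of up to 0.763%, and in 0.0457%, 0.129% and 0.148% in the other libraries, and Tox in 0.509%, 0.0913%, 0.259% and 0.593%. Median depths before thinning were 4767, 4577.5, 3661 and 2113.5 UMIs in CD8 T cells and 1918, 2219, 1634.5 and 1042 in neutrophils. Lag3 was found in 21.2%, 16.3%, 18.1% and 19.2% of thinned CD8 T cells with overlapping intervals, and in 0 of 393, 1 of 4381, 0 of 773 and 0 of 674 thinned neutrophils, where a count of 0 allows up to 0.763%, 0.388% and 0.445% in the libraries without a UMI.

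Progenitor and terminal gates were read in the same thinned CD8 T cells. Among those with a Pdcd1 UMI, a Tcf7 UMI was found in 0 of 207 in untreated, which allows a share of cells with a UMI at this depth of up to 1.45%, in 6 of 72 with ADU-S100 (8.33%), in 7 of 152 with anti-LTβR (4.61%) and in 1 of 181 with combination therapy (0.552%). The exact intervals of the last 3 were 3.12 to 17.3%, 1.87 to 9.26% and 0.0140 to 3.04%. These shares depended on the depth. At 2000 UMIs they were 3 of 281, 12 of 88, 11 of 197 and 7 of 155, and unthinned 12 of 387, 19 of 118, 23 of 271 and 9 of 286, so no order of anti-LTβR and combination therapy is read from them. Over all CD8 T cells Tcf7 was found in 6.53%, 20.7%, 24.5% and 23.2%, and among those with no Pdcd1 UMI in 11.1%, 27.5%, 30.9% and 33.2%, so Tcf7 molecules lay mostly in cells with no Pdcd1 UMI in each library. Cells with a Pdcd1 and a Havcr2 UMI and no Tcf7 UMI were 14.3% (11.3 to 17.6) in untreated, 8.37% (4.95 to 13.1) with ADU-S100, 8.01% (6.01 to 10.4) after anti-LTβR and 6.90% (5.00 to 9.25) with combination therapy, with untreated the highest. Among cells with a Pdcd1 UMI a Tox UMI was found in 71.98% (65.3 to 77.98) in untreated, 36.1% (25.1 to 48.3) with ADU-S100, 54.6% (46.3 to 62.7) after anti-LTβR and 63.0% (55.5 to 70.0) with combination therapy. A Lag3 UMI was found in 24.2% (18.5 to 30.6), 27.8% (17.9 to 39.6), 38.8% (31.0 to 47.0) and 32.6% (25.8 to 39.9) of them. Unthinned, these Lag3 shares were 70.5%, 64.4%, 64.9% and 51.4%, so no order of the libraries is read from them.

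**Figure D3:**
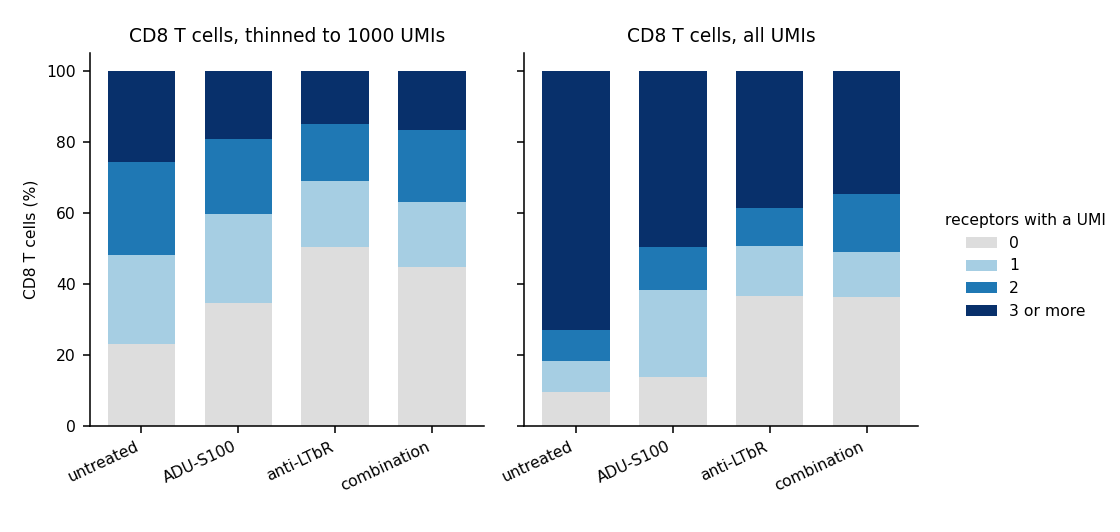
Stacked bars of the share of CD8 T cells (%) with UMIs of 0, 1, 2, or 3 or more of Pdcd1, Ctla4, Lag3, Havcr2 and Tigit in each library, after thinning to 1000 UMIs on the left and with all UMIs on the right. Untreated has the smallest share with 0 receptors in both panels (23.0% thinned, 9.34% with all UMIs), and after thinning anti-LTβR has the largest (50.3%).

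The other genes of the pathway were read from fixed lists in all CD8 T cells, where 6.14%, 7.11% and 6.41% of all genes were at least 1.5-fold higher and 9.27%, 6.32% and 7.3% lower. Progenitor and memory genes were higher in the agonist libraries: 10, 11 and 10 of 10, 11 and 11 measured were at least 1.5-fold higher and 0, 0 and 0 lower, with list medians of log2 1.48, 1.72 and 2.07 beside −0.06, −0.01 and −0.05 over all genes. Tcf7 stood at 77.3, 233, 335 and 326 CPM. Klf2, a factor of quiescent T cells, stood at 41.5, 198, 209 and 205 CPM, and S1pr1, the receptor for exit from tissue, at 22.2, 61.7, 85.1 and 96.0. Tcf7 and S1pr1 are leading genes of the Tcf7-led cluster, which held a larger share of CD8 T cells in these 3 libraries.

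Of the exhaustion and effector transcription factors, 2, 1 and 2 of 15, 15 and 15 were at least 1.5-fold higher and 4, 5 and 2 lower, beside 6.14%, 7.11% and 6.41% and 9.27%, 6.32% and 7.3% of all genes, with list medians of log2 −0.07, −0.24 and −0.19. Nr4a1, induced by the T cell receptor, stood at 81.9, 181, 125 and 128 CPM and Irf4, which the same receptor induces, at 39.7, 84.8, 53.4 and 61.1 CPM, both lowest in untreated. Nr4a2, from the same family as Nr4a1, was highest in untreated at 737, 468, 381 and 468 CPM, as was Prdm1 (Blimp-1, a repressor of memory genes) at 154, 108, 88.5 and 113 CPM. Tox2, the relative of Tox, was picked after its values were seen and stood at 39.0, 10.1, 17.5 and 34.2 CPM from 109, 11, 46 and 56 UMIs, so its single agonist libraries were the lowest, as those of Tox were.

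Of the effector products, 2, 1 and 1 of 11, 11 and 10 were at least 1.5-fold higher and 0, 3 and 3 lower. Of all genes, 6.14%, 7.11% and 6.41% were that much higher and 9.27%, 6.32% and 7.3% lower. The higher products were Gzma in each library and Tnf with ADU-S100. The lower ones were Ccl3, Ccl4 and Ccl5 with anti-LTβR, and Gzmb, Gzmk and Ccl3 with combination therapy. The list medians were log2 0.27, −0.23 and −0.53. Gzma, a granzyme that is also an NK cell marker, stood at 70.5, 446, 272 and 271 CPM, higher by log2 2.66, 1.95 and 1.94. The chemokines Ccl3, Ccl4 and Ccl5, which draw other leukocytes, were highest in untreated, with Ccl3 at 886, 618, 499.7 and 504 CPM, Ccl4 at 1835, 1394, 1139 and 1299 and Ccl5 at 4489, 3539, 2668 and 3031. Other co-receptors were mixed, with 3, 2 and 2 of 16, 16 and 16 at least 1.5-fold higher and 4, 4 and 3 lower, beside the same shares of all genes. Their list medians were log2 −0.09, −0.28 and −0.37, beside −0.06, −0.01 and −0.05 over all genes. Btla, the receptor of HVEM, stood at 23.3, 44.2, 56.8 and 83.7 CPM and Nt5e (CD73, which makes adenosine) at 70.8, 141, 121 and 107, both lowest in untreated, whereas Cd244a (2B4) stood at 109, 47.0, 64.1 and 51.3 and Cd200r1 at 85.1, 35.0, 51.9 and 56.8, both highest there. Of 5 genes of PD-1 signaling, 1, 0 and 0 were at least 1.5-fold lower and 0, 0 and 0 higher, beside the same shares of all genes. The medians were log2 −0.25, −0.46 and −0.10. The gene past that fold was Ptpn6 (the phosphatase SHP-1), at 244, 145, 165 and 181 CPM, and Cd3e stood at 884, 733, 635 and 666 CPM.

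In the other lymphocytes Cd226 (DNAM-1), which shares the ligand Pvr with TIGIT and opposes it, was highest in untreated, with 229.9, 157, 176 and 151 CPM in CD4 T cells and 362, 230.4, 217 and 157 CPM in NK cells. In CD4 T cells 1, 0 and 0 of 14, 15 and 14 co-receptors were at least 1.5-fold higher and 0, 1 and 3 lower, beside 6.9%, 6.95% and 5.94% and 11.2%, 4.24% and 7.43% of all genes, with list medians of log2 0.14, −0.22 and −0.26 beside −0.06, 0.02 and −0.01 over all genes. In NK cells 2, 2 and 1 of 15, 17 and 16 were higher and 2, 3 and 4 lower, beside 4.57%, 4.85% and 4.64% and 5.78%, 3.11% and 4.81% of all genes, with medians of −0.03, −0.04 and −0.22 beside −0.04, 0.00 and −0.02, and Cd200r1 stood at 32.5, 15.8, 19.4 and 11.7 CPM. In regulatory T cells 1, 0 and 0 of 12, 14 and 12 were higher and 2, 1 and 4 lower, beside 6.44%, 6.25% and 8.79% and 13.9%, 5.75% and 14.5% of all genes, with medians of −0.03, −0.03 and −0.43 beside −0.05, 0.00 and −0.04. The most abundant co-receptors there were Icos, at 1484, 1740.3, 1456 and 1364 CPM, and the costimulator Tnfrsf4 (OX40), at 1397, 1413, 961 and 879 CPM.

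Cd274 was highest in neutrophils and mature DC. Neutrophils stood at 1387 CPM (1309.9 to 1466) in untreated, 1725 (1701 to 1749) with ADU-S100, 1386 (1330.0 to 1443) after anti-LTβR and 1099 (1046 to 1154) with combination therapy. ADU-S100 was above and combination therapy below untreated, at log2 0.31 (0.23 to 0.40) and −0.34 (−0.44 to −0.23), while the anti-LTβR interval overlapped that of untreated. Mature DC stood at 1536, 1695, 1484 and 1477 CPM and differed little, at log2 0.14, −0.05 and −0.06. A Cd274 UMI was found in 49.1%, 60.4%, 49.5% and 45.0% of thinned neutrophils. In thinned CD8 T cells it was found in 5.35%, 12.8%, 8.33% and 6.57%, highest with ADU-S100, where the myeloid markers given above were highest too, and their part in the share was not tested. Neutrophils were 6.03%, 36.9%, 7.11% and 8.62% of leukocytes and supplied 6.55%, 41.6%, 8.03% and 7.73% of all Cd274 UMIs.

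In macrophages and monocytes as 1 class (2799, 3796, 5564 and 6055 cells) Cd274 stood at 386 (378 to 394), 447 (440.3 to 455), 449 (442 to 456) and 425 (417 to 434) CPM, and the groups within them did not share this order. C1q macrophages, 1060, 712, 1116 and 1351 of these cells, held 353, 354, 259 and 342 CPM, where anti-LTβR was lower (log2 −0.45, −0.53 to −0.36). The mixture of the class thus differed between libraries, and its part in the class levels was not tested. Monocytes held 239, 309, 314 and 269 CPM, lowest in untreated. Over all genes the median log2 ratio in macrophages and monocytes was −0.20 with ADU-S100, and median-of-ratios scaling, which takes out such a shift, gave 0.41, 0.26 and 0.23 for Cd274 in place of 0.21, 0.22 and 0.14. At a clustering resolution of 2, where other cells fell into the class, the ratios were 0.05, −0.14 and −0.02, so the order of untreated and the agonist libraries for Cd274 in this class was not settled.

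DC as a whole held Cd274 at 581, 744, 681 and 529 CPM, with a combination ratio of log2 −0.14 (−0.22 to −0.05) that was 0.15 (0.05 to 0.24) with each cell named by its own markers, and cDC1 at 276, 320.3, 385 and 324 CPM. Mature DC, which held more Cd274, were 157, 112, 158 and 124 of 662, 498, 809 and 809 DC. The mixture of DC thus differed between libraries, and its part in the levels of all DC was not tested. Type 2 conventional DC (cDC2, which present antigen to CD4 T cells) held 168, 139, 241 and 317 CPM, and combination therapy was above untreated by log2 0.92 (0.48 to 1.37). The cDC2 numbered 46, 27, 87 and 95 cells with 67, 42, 153 and 129 UMIs of the gene. The 6 myeloid markers summed to 1118, 1080.2, 1879 and 1884 CPM in cDC2, also higher with anti-LTβR and combination therapy, and their part in the Cd274 values was not tested. B lineage cells held 203, 338, 306 and 308 CPM, lowest in untreated, where they numbered 53 cells with 163 UMIs of Cd274. In CD4 T cells Cd274 stood at 217, 278, 188 and 98.5 CPM and was lowest with combination therapy (log2 −1.14, −1.74 to −0.58). CD8 T cells held 80.5, 89.4, 77.1 and 78.9 CPM, regulatory T cells 205, 223, 221 and 197 CPM and NK cells 135, 203, 157 and 113 CPM, where ADU-S100 stood above untreated in NK cells (log2 0.58, 0.32 to 0.85) and the intervals in the other 2 types included 0. The myeloid markers summed to 174, 250.1, 148 and 234 CPM in NK cells, also highest with ADU-S100, and their part was not tested.

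Pdcd1lg2 was highest in mature DC, with 723 CPM (671 to 777) in untreated, 713 (649.7 to 781) with ADU-S100, 759 (705 to 816) after anti-LTβR and 596 (526 to 674) with combination therapy. Combination therapy was the lowest (log2 −0.28, −0.49 to −0.07). Conventional DC held less and were lowest in untreated: cDC1 stood at 54.4 (43.1 to 67.7), 146 (119 to 178), 125 (102 to 151) and 78.9 (58.8 to 104) CPM, above untreated by log2 1.43 (0.99 to 1.87) with ADU-S100 and 1.20 (0.76 to 1.64) with anti-LTβR, and cDC2 at 32.5, 72.7, 94.3 and 120.4 CPM from 13, 22, 60 and 49 UMIs. The 6 myeloid markers summed to 274, 1016, 226 and 209 CPM in cDC1, highest with ADU-S100, and those in cDC2 are given above. Their part in these Pdcd1lg2 values was not tested. All DC together stood at 243, 326, 305 and 249 CPM, or log2 0.42, 0.33 and 0.04, and at 0.18, 0.05 and −0.30 with every cell thinned to 1000 UMIs. The mixture of DC differed between libraries, as given above. A Pdcd1lg2 UMI was found in 17.0% (14.1 to 20.1), 21.2% (17.6 to 25.1), 21.6% (18.8 to 24.7) and 17.5% (14.8 to 20.5) of all thinned DC. In thinned CD8 T cells, where little of a ligand of antigen-presenting cells is looked for, it was found in 3.17%, 3.45%, 2.72% and 2.86%, at median depths of 7147.5, 7170.5, 5927 and 3390.0 UMIs in DC and of those given above in CD8 T cells.

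Macrophages and monocytes held Pdcd1lg2 at 60.5 (57.4 to 63.7), 36.9 (34.8 to 39.0), 74.7 (71.7 to 77.7) and 77.9 (74.4 to 81.5) CPM. ADU-S100 was below untreated (log2 −0.71, −0.82 to −0.60) and the other libraries above it. The ADU-S100 ratio was −0.51 at a clustering resolution of 2 and −0.51 with median-of-ratios scaling, short of a 1.5-fold difference in both. Combination therapy exceeded ADU-S100 by log2 1.08 (0.98 to 1.18). The lower level with ADU-S100 was found in C1q macrophages, at 55.2, 36.8, 68.4 and 82.4 CPM, and not in monocytes, at 8.43, 14.3, 16.4 and 22.6 CPM. Neutrophils showed the reverse, 39.6, 86.2, 39.3 and 35.1 CPM, with ADU-S100 above untreated by log2 1.12 (0.64 to 1.65). They supplied 0.949%, 24%, 1.24% and 1.33% of all Pdcd1lg2 UMIs. Lymphocytes held little, with 40.1, 44.2, 33.6 and 28.1 CPM in CD8, 56.6, 53.5, 48.6 and 57.9 in CD4 and 74.3, 45.4, 40.7 and 44.9 in regulatory T cells and 63.6, 81.0, 59.9 and 74.1 in NK cells.

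Of the members measured in macrophages and monocytes, 4, 1 and 1 of 6, 6 and 6 were at least 1.5-fold lower (Pdcd1lg2, Ctla4, Lag3 and Tox with ADU-S100, Tox in the other 2 libraries), beside 13.6%, 4.47% and 5.13% of all genes. Lag3 with combination therapy was the member that much higher, 0, 0 and 1 beside 6.01%, 5.66% and 5.39%. Ctla4, Lag3 and Tox stood below 10 CPM there. Cd3e, Cd3d and Trac summed to 4.77, 1.20, 4.41 and 4.56 CPM in the class and were lowest with ADU-S100, and their part in these 3 values was not tested. In DC 2, 1 and 1 of 7, 8 and 6 were higher (Tox in each library, and Pdcd1 with ADU-S100), beside 4.87%, 6.34% and 6.29%, and 0, 0 and 1 lower (Ctla4), beside 8.84%, 4.11% and 5.08%. Tox in DC had 25, 28, 78 and 43 UMIs, while Cd3e, Cd3d and Trac summed to 6.62, 7.18, 22.5 and 7.69 CPM, highest with anti-LTβR as Tox was, and their part in the Tox and Pdcd1 values was not tested.

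**Figure D4:**
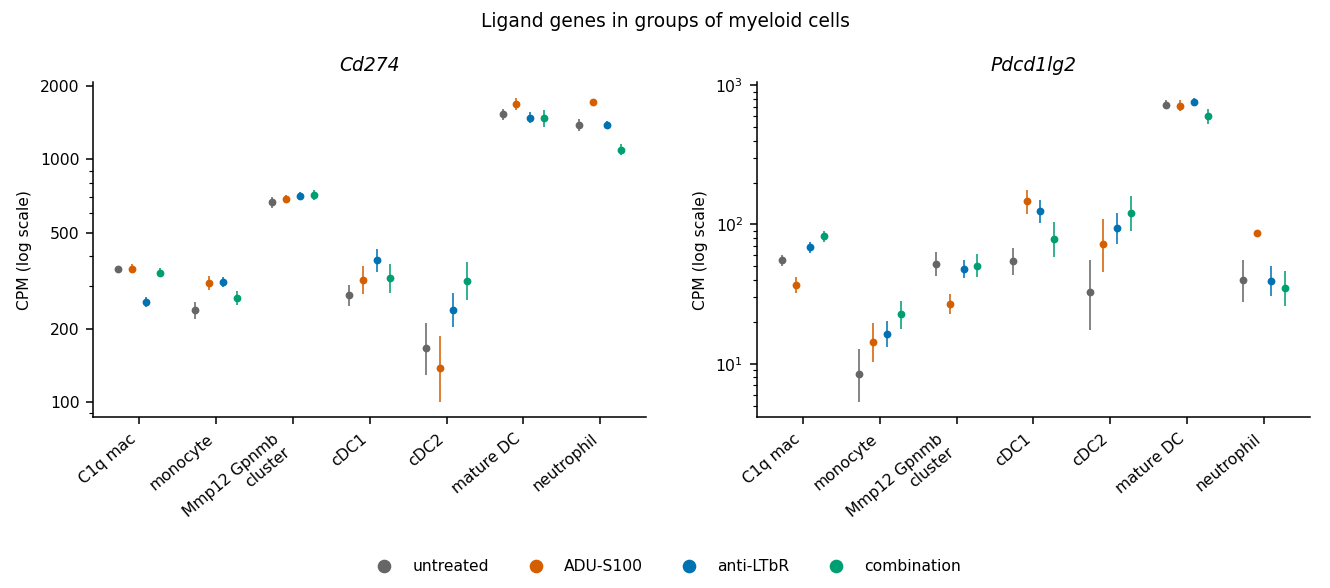
CPM of Cd274 and Pdcd1lg2 (log scales) in 7 groups of myeloid cells, 1 point per library with its 95% counting interval; the Mmp12 Gpnmb cluster had too few markers to be named. Cd274 is highest in mature DC and neutrophils and Pdcd1lg2 in mature DC, the ADU-S100 point lies lowest for Pdcd1lg2 in C1q macrophages and highest in neutrophils, and cDC2 are lowest in untreated for Pdcd1lg2.

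DC held 27, 79, 34 and 20 UMIs of Pdcd1, of which mature DC held 9, 35, 13 and 4. Mature DC stood at 8.92 CPM (4.08 to 16.9) in untreated, 53.8 (37.5 to 74.8) with ADU-S100, 13.3 (7.09 to 22.8) after anti-LTβR and 9.24 (2.52 to 23.7) with combination therapy, with ADU-S100 the highest. ADU-S100 was above untreated by log2 2.59 (1.51 to 3.83). The UMIs lay in 7, 16, 6 and 2 cells of 157, 112, 158 and 124. Cd3e, Cd3d and Trac summed to 23.8, 30.7, 9.22 and 9.24 CPM in the same cells, and their part in the Pdcd1 value was not tested.

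Ligands of the other receptors were read from a fixed list of 16 genes. In macrophages and monocytes 3, 1 and 2 of 12, 12 and 12 measured were at least 1.5-fold higher and 1, 1 and 1 lower, beside 6.01%, 5.66% and 5.39% and 13.6%, 4.47% and 5.13% of all genes, with list medians of log2 0.01, 0.14 and 0.05 beside −0.20, −0.03 and −0.09 over all genes. Cd80, the ligand of CTLA-4 and CD28 that also binds PD-L1, stood at 182, 299, 374 and 407 CPM, higher by log2 0.72, 1.04 and 1.17. Pvr, the ligand of TIGIT, stood at 57.2, 100.2, 78.6 and 87.4 CPM, also lowest in untreated. Icosl, the ligand of ICOS, was highest in untreated at 27.6, 15.8, 16.0 and 16.1 CPM, as was Hmgb1, a TIM-3 ligand, at 291, 209, 232 and 239 CPM. In DC 2, 2 and 0 of 12, 12 and 12 were at least 1.5-fold higher and 0, 1 and 3 lower, beside 4.87%, 6.34% and 6.29% and 8.84%, 4.11% and 5.08% of all genes, with medians of 0.12, −0.05 and 0.05 beside −0.08, 0.00 and −0.02. Those higher were Pvr and Tnfsf9 with ADU-S100 and Pvr and Nectin2 with anti-LTβR. Those lower were Icosl with anti-LTβR and Ceacam1, Tnfrsf14 and Cd200 with combination therapy. Cd80 stood there at 472, 680.2, 635 and 597 CPM, Cd86, the partner of CD80, at 1156, 1563, 1308 and 1271 and Pvr at 62.6, 105, 101 and 86.4, all lowest in untreated.

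Genes of interferon signaling and of PD-L1 control were read from another list. In macrophages and monocytes 1, 1 and 0 of 12, 12 and 12 were at least 1.5-fold higher and 0, 0 and 0 lower, with medians of log2 −0.05, 0.12 and −0.04, beside the shares of all genes in this class given above. The gene past that fold was Jak2, the kinase of the interferon-γ receptor, at 154, 251, 256 and 229 CPM. Ifngr1, a chain of that receptor, stood at 237, 274, 319 and 308 CPM, while Cxcl9, an interferon-γ target, stood at 868, 692, 623 and 715 and Cmtm6, a protein that stabilizes PD-L1, at 94.3, 69.3, 81.7 and 79.6, both highest in untreated. In DC 0, 0 and 0 of 12, 12 and 12 were higher and 0, 0 and 1 lower (Socs1, a brake on interferon signaling). Of all genes in DC, 4.87%, 6.34% and 6.29% were that much higher and 8.84%, 4.11% and 5.08% lower. The list medians were log2 0.24, 0.10 and −0.12. Ifngr1 stood there at 239.8, 327, 297 and 322 CPM and Hif1a, the oxygen-regulated factor, at 266, 338, 372 and 308.

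Pdcd1 over all leukocytes stood at 59.4, 14.6, 26.4 and 25.8 CPM, a log2 ratio of −2.02, −1.17 and −1.20. Weighted so that each cell type held the share of all UMIs it held in untreated (class shares), the ratios were −0.28, −0.79 and −0.47, so the ADU-S100 ratio came much nearer to 0 and the anti-LTβR ratio less so. For Tox the ratios were −2.57, −0.95 and −1.18 as measured and −1.13, −0.79 and −0.44 at untreated class shares. For Ctla4 they were −2.14, −0.91 and −1.27 and −0.47, −0.56 and −0.45, and for Tigit −1.62, −0.71 and −1.06 and −0.20, −0.53 and −0.34. Lag3 went from −1.63, −0.38 and −0.50 to −0.07, 0.01 and 0.07. Cd274 over all leukocytes was higher by 0.78, 0.14 and 0.11 and by 0.25, 0.15 and 0.03 at untreated class shares, and Havcr2 and Pdcd1lg2 differed there by 0.03, −0.06 and 0.17 and by −0.17, 0.21 and 0.18.

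**Figure D5:**
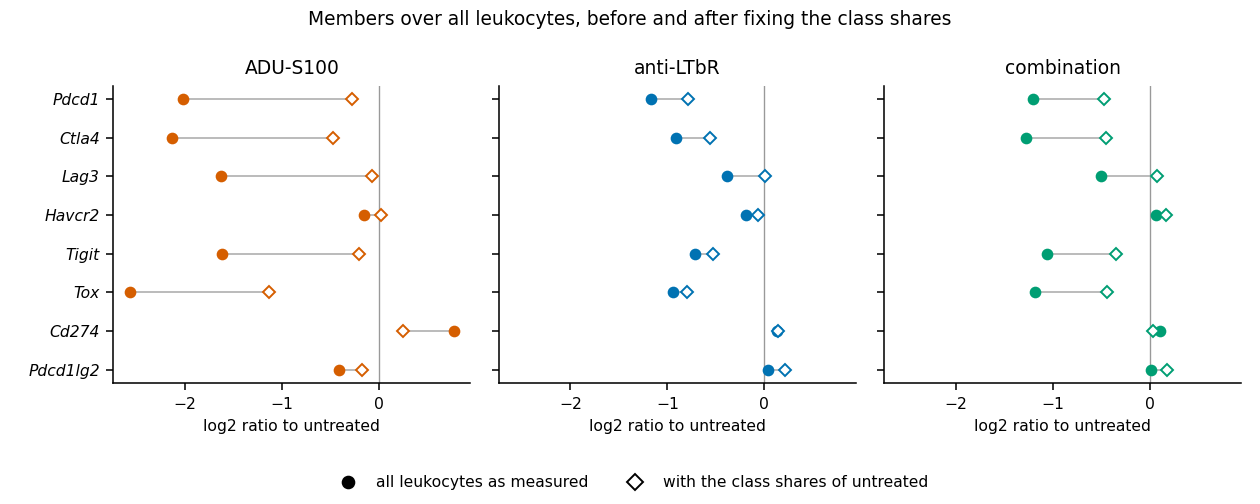
Log2 ratio of CPM over all leukocytes to untreated for each gene, 1 panel per agonist library with a shared axis, as measured (filled circles) and with every library weighted to the class shares of untreated (open diamonds). The open diamonds lie nearer 0 than the circles for Pdcd1, Ctla4, Lag3, Tigit and Tox in all 3 panels, and for Cd274 with ADU-S100 (0.78 to 0.25).

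Levels of the members over 52 combinations of cell type and library with at least 50 cells (log2 of CPM plus 1) were described by Pearson's r, without a test, since the combinations share libraries, depth and markers. Pdcd1 and Tox gave r = 0.897 and Ctla4 and Tigit 0.927, whereas Pdcd1 and Cd274 gave −0.394. Of 11156 genes, those most like Pdcd1 were Ubash3a (0.954), Icos (0.954) and Cd3g (0.9498), a chain of the T cell receptor complex. Those most like Tox were Lck (0.976), the kinase of the T cell receptor, Sh2d2a (0.973) and Camk4 (0.971). Ctla4 was closest to Trib2 (0.922), Ndfip1 (0.921) and Cd28 (0.920), and Tigit to Slain1 (0.946), Ptprcap (0.945) and Septin1 (0.943). Lag3 was closest to Slc25a40 (0.897), Lclat1 (0.878) and Carnmt1 (0.863), and Havcr2 to Agpat4 (0.799), Atp5md (0.792) and Pgk1 (0.776). Of the ligands, Cd274 was closest to Cd80 (0.847), Marcksl1 (0.838) and Pde4b (0.828), and Pdcd1lg2 to Rhoc (0.857), Plscr1 (0.840) and Bcl2a1d (0.829).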

How the data were processed

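Live CD45+ cells of 4 libraries, 1 per treatment group, were analysed. The authors deposited gene by cell counts of UMIs. The labels name Cell Ranger 7.1.0 and mm10, whereas the file headers name version 8.0.1. The files hold no coordinates, and the promoter windows come from RefSeq GRCm38.p6. The 8 members and all gene lists were chosen with earlier results of these data known.

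Cells with 300 to 5000 genes and at most 6% mitochondrial UMIs were kept. Doublets were removed as the highest Scrublet scores, 0.4% of cells per 1000 cells of a library (305, 949, 857 and 1066 cells), because the threshold Scrublet set itself called 1 cell in all. Cells were clustered with Scanpy 1.11.5 and Leiden (leidenalg 0.10.2, igraph 0.11.9) on 2000 variable genes without the members, with 30 components, 20 neighbours and resolution 1, which gave 32 clusters. A cluster was named when at least 3 markers of a type were detected and its leading genes did not go against the name. Counts were summed per cell type and library and divided by the total to give CPM. Intervals are exact Poisson for CPM, exact conditional binomial for ratios and Clopper-Pearson for shares, at 95% (scipy 1.17.1, numpy 2.4.6, pandas 2.3.3, Python 3.11.15), and a count of 0 was given a limit of 3 counts. The ratio interval was tested on simulated data. For shares of cells, each cell was thinned to 1000 UMIs. For counts of genes, a gene was read in a comparison with at least 50 UMIs over both libraries, and a 1.5-fold difference was counted. Ratios of single members are given below that limit too. Depth was a median of 2171 to 4580.0 UMIs per leukocyte.

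All 8 members were named, whatever their values. From each list, up to 4 genes were named that lay on the same side of untreated in the 3 agonist libraries with intervals that excluded 0, by the largest mean difference, and where there was none the 2 of highest CPM. For likeness, the 3 genes of highest Pearson's r were named, among genes with at least 200 UMIs. The alternatives were other limits on cells, no doublet removal, resolution 2, cells named without clusters, thinning, median-of-ratios scaling, other totals, and removal of mixed cells or of the richest cell. A few genes, a group of macrophages and the genotype of the tumor line are not reported here.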

Additional observations from a re-analysis of the deposited data

How the results depend on the processing

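Each value is 1 library of 10 pooled tumors, so the intervals hold counting error and nothing of the spread between mice, and library and treatment cannot be told apart. The combination library was the shallowest and lost the most cells to thinning. Regulatory T cells with ADU-S100 and combination therapy (49 and 52 cells) and cDC2 bound what could be seen there. Free RNA in droplets was not removed. No paired analysis was possible because each group had 1 library, and no library could be left out for the same reason.

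The 15 pairs of a member and a cell type gave 45 log2 ratios to untreated, recomputed under each alternative and taken as moved where the new value lay outside the first 95% interval. Of these recomputed ratios and the shares of cells with at least 2 receptors, 344 stayed, 76 moved and 11 reversed, which was counted only where the first interval excluded 0, and 45 of 45 ratios stayed where immunoglobulin, mitochondrial and ribosomal protein genes were left out of the totals. The ratios of Pdcd1, Tigit and Tox in CD8 T cells changed sign in none of the other alternatives (the Rgs16-led cluster, given next, was added later). Those that moved or reversed are given here, each as a log2 ratio to untreated unless another reference is named, and the cause was not tested. In CD8 T cells of the Rgs16-led cluster, an alternative chosen after seeing the data, the ratio was Pdcd1 0.11 (ADU-S100, reversed), −0.13 (anti-LTβR), 0.081 (combination, reversed), Lag3 0.54 (ADU-S100), 0.67 (anti-LTβR), 0.41 (combination), Havcr2 0.049 (ADU-S100, reversed), 0.049 (anti-LTβR, reversed), 0.20 (combination, reversed), Tigit −0.11 (ADU-S100), −0.36 (anti-LTβR), −0.016 (combination), Tox −1.07 (ADU-S100), −0.78 (anti-LTβR), −0.20 (combination). Without doublet removal the ratio was in CD8 T cells Pdcd1 −0.91 (anti-LTβR), Lag3 −0.18 (anti-LTβR), Tox −0.70 (combination). With each cell named by its own markers the ratio was in CD8 T cells Lag3 −0.28 (anti-LTβR), Havcr2 −1.05 (anti-LTβR), Tigit −1.08 (anti-LTβR), Tox −0.42 (combination), and in regulatory T cells Ctla4 −0.48 (anti-LTβR), −0.028 (combination), and in macrophages and monocytes Cd274 0.12 (anti-LTβR), 0.091 (combination), Pdcd1lg2 −0.84 (ADU-S100), 0.20 (anti-LTβR), Havcr2 0.12 (ADU-S100), 0.021 (anti-LTβR), 0.27 (combination), and in DC Cd274 0.56 (ADU-S100), 0.38 (anti-LTβR), 0.15 (combination, reversed), Pdcd1lg2 0.47 (anti-LTβR), Havcr2 −0.097 (ADU-S100). With cells thinned to 1000 UMIs the ratio was in CD8 T cells Havcr2 −0.96 (ADU-S100), −1.05 (anti-LTβR), −0.99 (combination), Tox −1.26 (anti-LTβR), −0.72 (combination), and in regulatory T cells Ctla4 −0.10 (anti-LTβR), and in macrophages and monocytes Cd274 0.10 (ADU-S100), 0.086 (combination), Pdcd1lg2 0.49 (combination), Havcr2 0.13 (ADU-S100), 0.077 (anti-LTβR), 0.18 (combination), and in DC Cd274 −0.25 (combination), Pdcd1lg2 0.18 (ADU-S100), 0.046 (anti-LTβR), −0.30 (combination), Havcr2 −0.26 (ADU-S100), −0.030 (anti-LTβR), −0.060 (combination, reversed), and in CD4 T cells Ctla4 −0.22 (ADU-S100), Tigit −0.30 (anti-LTβR), 0.23 (combination). Without mixed cells the ratio was in regulatory T cells Ctla4 −0.60 (ADU-S100), −0.060 (combination). Without the richest cell of each library the ratio was in regulatory T cells Ctla4 −0.51 (ADU-S100), −0.44 (combination). With a Foxp3 and a Cd4 UMI required the ratio was in regulatory T cells Ctla4 −0.58 (anti-LTβR), 0.21 (combination, reversed). With median-of-ratios scaling the ratio was in macrophages and monocytes Cd274 0.41 (ADU-S100), 0.26 (anti-LTβR), 0.23 (combination), Pdcd1lg2 −0.51 (ADU-S100), Havcr2 0.48 (ADU-S100), 0.42 (combination), −0.059 (combination over ADU-S100, reversed). At clustering resolution 2 the ratio was in macrophages and monocytes Cd274 0.050 (ADU-S100), −0.14 (anti-LTβR, reversed), −0.021 (combination, reversed), 0.12 (combination over anti-LTβR, reversed), Pdcd1lg2 −0.51 (ADU-S100), Havcr2 0.078 (ADU-S100), −0.031 (anti-LTβR, reversed). With limits of 200 to 7500 genes and 10% mitochondrial UMIs the ratio was in macrophages and monocytes Havcr2 0.33 (ADU-S100), 0.23 (anti-LTβR), 0.41 (combination). The share of CD8 T cells with at least 2 receptors was 73.5%, 54.1%, 45.4% and 52.9% at 2000 UMIs and 81.7%, 61.9%, 49.3% and 51.0% unthinned. The share of all genes past 1.5-fold, 3.11 to 14.5% over the comparisons with untreated, was 0.507 to 5.20% past 2-fold, 0.939 to 9.39% with at least 200 UMIs and 15.8 to 34.7% with no minimum.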
